A study of Rattus norvegicus with 14 samples.

Results

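Sharp borders between methylated and unmethylated DNA were examined in the soleus of old rats from the HCR and LCR lines, which were bred for high and low running capacity. Methylation was read as the percent of methylated cytosines in windows of 1000 bp by reduced representation bisulfite sequencing (RRBS), which samples CpG-rich fragments around MspI sites. Of the 194367 windows in the table, 131799 lay on chromosomes 1 to 20 and had a value in all 14 samples, called complete here. The methylated border windows, called members below, were chosen by their levels alone: 958 windows had a mean over the 14 samples of 50% or more and directly touched a window with a mean under 10%. They were 2.10% of the 45511 complete autosomal windows at 50% or more. Since 5 members touched an unmethylated window on both sides, there were 963 borders. At each border the step is the level of the member minus that of its unmethylated neighbour, in percentage points.

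The left soleus, a calf muscle used in posture and made mostly of slow fibres, was sampled at baseline from females aged 23 to 24 months. The lines were at generation 44 of selection from 1 genetically mixed stock, N:NIH, and were kept alike, with free access to chow. There were 6 HCR and 8 LCR samples, numbered as replicates; no label says that each is a separate rat, so tests measure the spread between these samples, which may be technical. The tissue was read in bulk, so a level between 0 and 100% cannot be told apart as a share of cells or as partial methylation within cells.

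In mammals most CpG sites are methylated by DNA methyltransferases, whereas CpG islands, many of them at gene starts, are kept free of methylation. Marks and proteins bound at active islands hinder the methyltransferases, and TET enzymes oxidise methyl groups that are placed there. The change from one state to the other can be abrupt or can extend over a flank known as the island shore. Shores are known for differing more between tissues than islands do.

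The members were selected on the mean over all samples of both lines, so the levels and the size of the step describe the choice. Member levels ranged from 50.03% to 91.3%, with a median of 61.2% and quartiles of 55.2% and 67.7%. Levels of the 953 different neighbours ranged from 0.327% to 9.99%, with a median of 3.41%. The step ranged from 40.2 to 85.0 points and had a median of 56.9 points. The 3 lowest members had means of 50.03%, 50.04% and 50.07%, and the 3 windows just short of the limit beside an unmethylated window had 49.92%, 49.95% and 49.95%. On the other side the 3 highest neighbours had 9.95%, 9.96% and 9.99%, and the 3 windows just above that limit beside a window of 50% or more had 10.02%, 10.02% and 10.02%. Where both windows were complete, most pairs that crossed the limit of 10% were less steep. Of the touching pairs in which exactly 1 window was under 10%, the other window was at 50% or more in 963 and between 10 and 50% in 4942, so that steep borders made up 16.3%.

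The borders were present in nearly every sample, which follows largely from their choice. The lowest mean step was 40.2 points, and the pooled within-line SD of the step had a median of 6.15 points. Few single steps could thus fall near 0. The member was above its neighbour in all 14 samples at 961 of 963 borders. A step of at least 30 points in every sample was found at 873 borders (90.7%). A stricter pattern, with every member value at 50% or more and every neighbour value under 10%, was found at 288. Of the 13482 single values of the step, 24 were under 20 points, each at a different border, and 2 were at or below 0.

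Beyond the 2 windows that defined it, a border was followed by a complete window more often on its unmethylated side than on its methylated side. A complete window lay beyond the unmethylated neighbour at 486 borders (50.5%) and beyond the member at 189 (19.6%). Among all complete autosomal windows 24.6% were followed by another one. That is not a like comparison, since the windows of a border already touch a complete window on their other side. At 382 borders (39.7%) the pair touched no further complete window at all. The unmethylated stretch was a single window at 574 borders and 2 windows at 306, and the longest had 10. The methylated stretch was a single window at 864 borders, 2 windows at 88 and never more than 3. Stretches were built from complete windows, so an end here is a change of level, a window with a value in only some samples, or a gap in the table.

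Methylation fell away on the far side of the member. In the 189 windows that followed a member the mean level was 48.1%, against 62.2% in the members they touched, and 99 of them were at 50% or more. The member was chosen for being above 50% and the next window was not, so part of this fall follows from the choice. By the third window from the border the mean was 37.2%, close to the 35.0% of all complete autosomal windows. On the unmethylated side 389 of the 486 windows beyond the neighbour were also under 10%, with a median of 2.02%. The mean reached 23.6% in the third window and 32.9% in the fourth. Levels thus came near that of all windows within 3 to 4 windows of the border on either side, where they could be read.

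**Figure D1:**
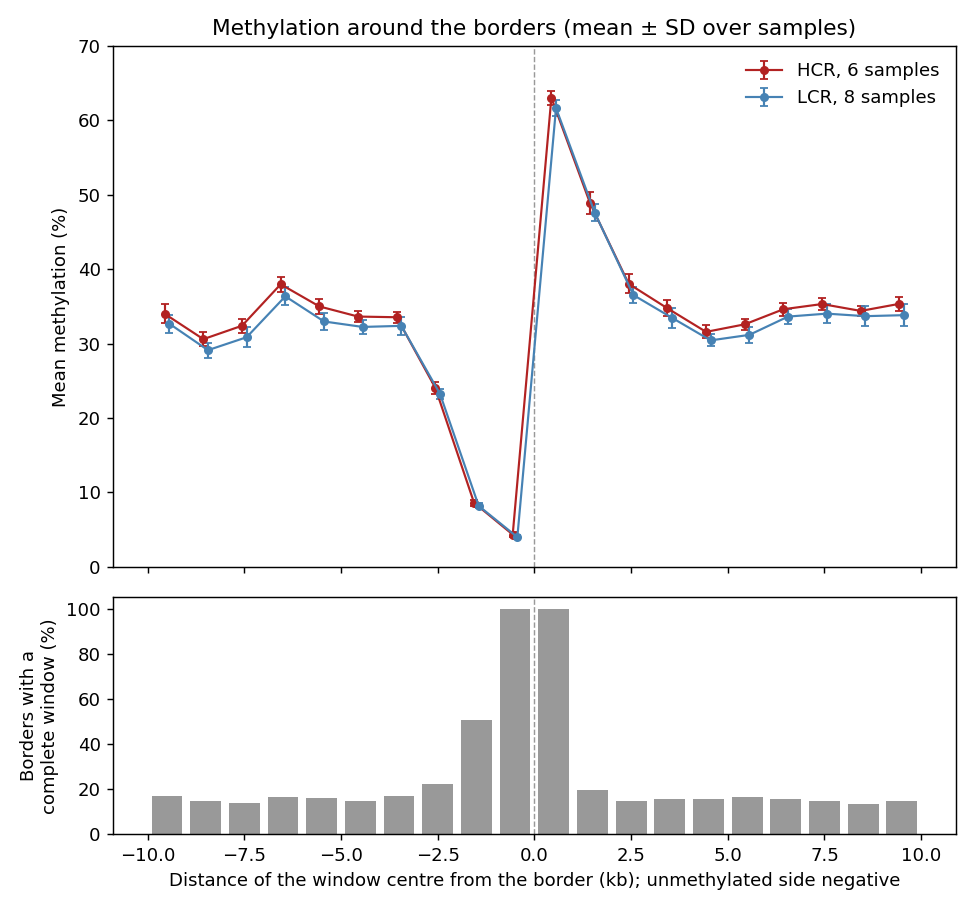
Mean methylation (%, top) and the share of borders with a complete window (%, bottom) against distance from the border in kb, with the unmethylated side negative. Points and bars in the top panel are the mean and SD over the 6 HCR or 8 LCR samples; both lines go from about 4% to over 60% across the border, and complete windows are more frequent on the unmethylated side (50.5% against 19.6% in the next window).

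The far end of the unmethylated stretch could be judged at few borders, since no complete window followed it at 806. Elsewhere the far end was another steep border at 34 and a window between 10 and 50% at 123. Counted once each, 17 stretches had a steep border at both ends, of which 10 consisted of 1 window and the others of 2. Their flanking members differed from each other by a median of 8.40 points. In 7 of the 17 both flanks had a higher mean in HCR, and in 1 both were lower. In the other 9 the flanks differed in direction. Over all 958 members 62.5% had a higher mean in HCR, as did 62.1% of the other windows of 50% or more.

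The median gap between successive members on a chromosome was 690.5 kb, and 28 of 938 gaps were 10 kb or less. Gaps between all complete windows were not taken, so these values do not show whether members are spread otherwise. Of the windows at 50% or more that touched any complete window, 7.48% were members. The share ran from 4.60% on chromosome 11 (15 members) to 10.8% on chromosome 10 (99 members). The mean step ranged from 55.6 points on chromosome 18 to 61.5 points on chromosome 20. The methylated window lay at the higher coordinate in 476 borders and at the lower in 487.

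The mean step was larger in HCR by 1.05 points (SE 0.386). HCR samples averaged 58.7 ± 0.613 points (SD, n = 6) and LCR samples 57.6 ± 0.830 points (SD, n = 8). HCR samples had a lowest mean step of 57.6, a median of 58.8 and a highest of 59.4 points. LCR samples had a lowest of 56.2, a median of 57.9 and a highest of 58.5 points. In 5 of 6 HCR samples the mean step was above that of every LCR sample, and HCR replicate 3, at 57.6 points, lay within the LCR range. As the members were picked with earlier results of these data known, this mean carries no p-value. The size of the difference depended on scale: it was 0.237 points after quantile normalization of the libraries, which gives every library the same set of levels.

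Both sides were higher in HCR on average, the methylated side by more points, so the neighbours reduced the difference of the step. The members stood at 63.1% ± 0.921 in the HCR samples (SD, n = 6) and at 61.7% ± 1.10 in the LCR samples (SD, n = 8), which is 1.41 points apart (SE 0.542). In 4 of 6 HCR samples the level was above every LCR sample, and 3 of 8 LCR samples were below every HCR sample. The neighbours averaged 4.33% ± 0.391 in HCR and 3.97% ± 0.294 in LCR, a difference of 0.351 points (SE 0.191) with wide overlap. After the mean of each library was subtracted, the member difference was 0.291 points and the neighbour difference -0.767 points; after quantile normalization they were 0.152 and -0.0895 points. The direction on the unmethylated side was thus not kept under either. For centring this is fixed by arithmetic, as the library means differed by 1.12 points between the lines, more than the neighbours did. The sign after centring therefore says nothing about the neighbours themselves. Other windows under 10% averaged 3.27% in HCR and 2.91% in LCR, a difference of 0.362 points (SE 0.0900). Centring cannot change the step itself, since both windows of a pair lose the same amount.

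**Figure D2:**
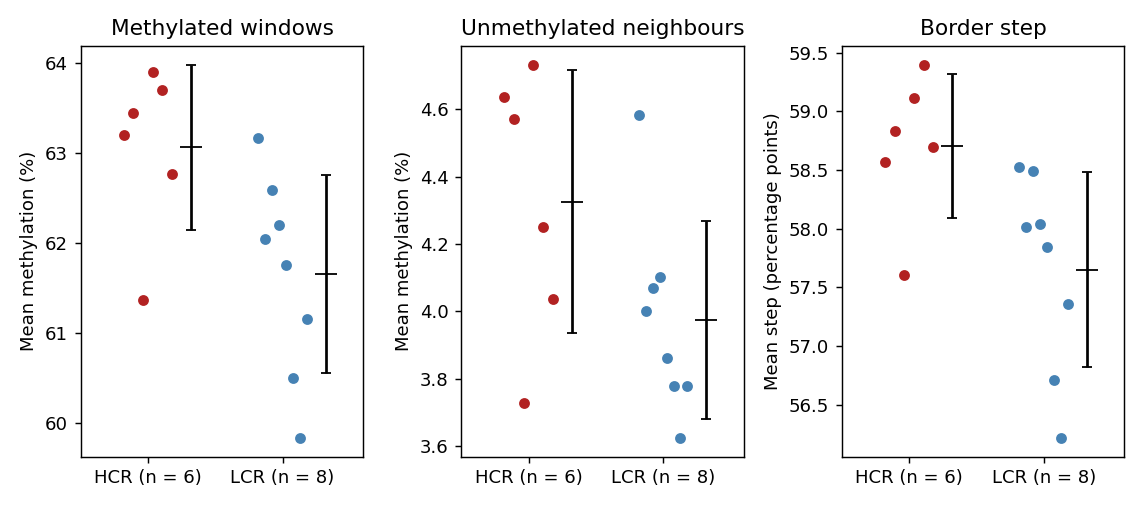
Mean level of the members (%), mean level of their unmethylated neighbours (%) and mean step (percentage points) in each sample, with the mean and SD of each line beside the points. The axes do not start at 0. For the step, 5 of 6 HCR samples lie above the highest LCR sample, at 58.5 points, while the neighbour levels overlap widely.

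The step of touching windows in general was also larger in HCR. Over all 32452 touching autosomal pairs, oriented from the lower to the higher mean, HCR samples averaged 12.5 ± 0.0983 points (SD, n = 6) and LCR samples 12.3 ± 0.110 points (SD, n = 8). Relative to the LCR step, the difference was 1.61% over all pairs and 1.82% over the borders. The other windows of 50% or more averaged 65.7% in HCR and 64.7% in LCR, a difference of 1.01 points. A larger mean step in HCR was found at 564 borders (58.6%), against 54.3% of all pairs tested, X and unplaced sequence included. On 19 of the 20 autosomes the mean step of the borders was larger in HCR, by up to 2.13 points on chromosome 4, and on chromosome 14 it was -0.0679 points. Since every chromosome shares the same 14 libraries, these directions are not independent.

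In each line the library that lacked most windows had the smallest mean step. LCR replicate 7 lacked a value in 23521 windows, the most of all samples, and had the lowest mean step, 56.2 points. It also had 31 borders with a step under 30 points, where the other LCR samples had 2 to 13. HCR replicate 3 lacked 17161 windows, the most in its line, and had the lowest HCR step. Fitted together with the number of missing windows, the lines differed by 1.07 points (SE 0.226), and without LCR replicate 7 by 0.847 points. The part of missing windows in single steps was not tested.

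At single borders the lines differed little. The difference of the step was under 5 points at 736 of 963 borders (76.4%), and its median size was 2.58 points. The lines were 10 points or more apart at 46, with the larger step in HCR at 34 and in LCR at 12. Tested with limma over all 33265 touching pairs, 1 border passed a Benjamini-Hochberg adjusted p of 0.05 (0.104% of borders), against 0.219% of all pairs (0.105% with the larger step in HCR and 0.114% with the larger in LCR). At an unadjusted p under 0.05 there were 90 borders (9.35%), 68 of them with the larger step in HCR, against 9.00% of all pairs. The count of 46 and both splits by direction have no like count over all pairs here, so they cannot be called particular to borders. The lines did not overlap at 2 borders (0.208%), against 0.391% of all pairs. These were the member at 19542001 to 19543000 on chromosome 3, with mean steps of 55.4 points in HCR and 70.03 in LCR, and that at 102526001 to 102527000 on chromosome 10, with 63.7 and 53.95 points, and neither passed (limma adjusted p = 0.156 and 0.0925). With the neighbour limit at 10%, the shares of borders were near or below those of touching windows in general. The count of passing borders was 0 without HCR replicate 2, 3 or 6 or without LCR replicate 2, 3, 5 or 6, and 2 without HCR replicate 5. Without HCR replicate 1 or 4 it was 1, but each time a different border passed, with the larger step in HCR.

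**Figure D3:**
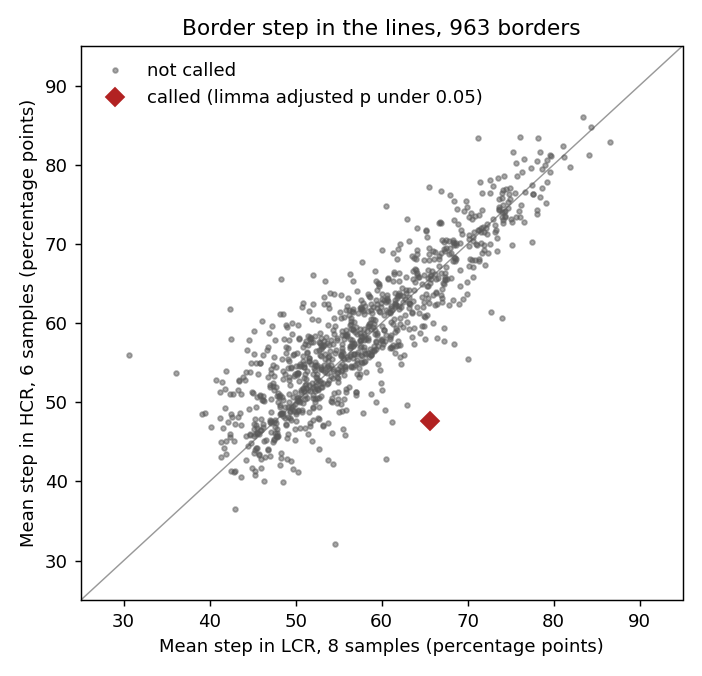
Mean step of each of the 963 borders in HCR against LCR, in percentage points, with the line of equality. Points follow that line, with 736 borders differing by under 5 points; the diamond is the border on chromosome 8 that passed the test.

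The border that passed lay on chromosome 8 (rn7), with the member at 65061001 to 65062000 and the unmethylated neighbour just before it. Its step was 40.1 to 58.4 points in the HCR samples, with a median of 46.9, and 58.2 to 75.3 points in the LCR samples, with a median of 64.4. The lines overlapped narrowly, as the highest HCR sample (replicate 5, 58.4 points) exceeded the lowest LCR sample (replicate 8, 58.2 points). HCR samples averaged 47.6 ± 6.02 points (SD, n = 6) and LCR samples 65.6 ± 5.60 points (SD, n = 8), so the step was -18.0 points in HCR relative to LCR (SE 3.09, limma adjusted p = 0.0285). It was narrower in HCR on both sides. The member stood at 57.6% ± 4.81 in HCR and 71.3% ± 4.26 in LCR, and the neighbour at 9.98% ± 4.40 and 5.70% ± 2.75. The call was lost without HCR replicate 1, 2, 3, 4 or 6 or LCR replicate 2, 3, 5 or 6 (limma adjusted p = 0.0543 to 0.0698) and with the step taken between log2 logit levels, the log2 ratio of the methylated to the unmethylated share (0.198). The lowest adjusted p in the 22 alternatives run was 0.00961 and the highest 0.234.

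The level of the member itself differed between the lines at 5 of 958 members (0.522%) by limma over all 135802 complete windows, against 0.569% of all windows. In HCR 4 were higher, against 0.405% of all windows, and 1 was lower, against 0.164%. With each library centred 4 members passed, 2 higher and 2 lower in HCR, of which 3 were among the 5. Of all 135802 windows 668 passed then. At an unadjusted p under 0.05 there were 106 members (11.1%), against 10.9% of all windows. Lines that did not overlap were found at 6 members (0.626%), against 0.710% of all windows. The share of members that differed was thus close to that of windows in general. The count was 2 without HCR replicate 2, and 3 without HCR replicate 6, LCR replicate 2 or LCR replicate 8.

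Of these 5 members, 2 flanked the same unmethylated window, at 184675001 to 184676000 on chromosome 2. The member before it, at 184674001 to 184675000, had a lowest HCR level of 70.2%, a median of 74.3% and a highest of 77.4%; in LCR these were 54.01%, 61.5% and 66.1%. The lines did not overlap there, and the HCR samples averaged 73.7% ± 2.56 (SD, n = 6) against 61.3% ± 4.07 in the LCR samples (SD, n = 8; log2 logit difference 0.80, SE 0.127, limma adjusted p = 0.00773). The member after it, at 184676001 to 184677000, is named because the passing members were few, not by the rule for naming windows. It had 85.8% to 87.9% in HCR, with a median of 86.6%, and 77.3% to 85.8% in LCR, with a median of 79.3%. Only LCR replicate 6, at 85.8%, reached the HCR range. The means were 86.7% ± 0.920 and 80.2% ± 2.72, a difference of 6.54 points (limma adjusted p = 0.0273). The window between them was listed at 0 in 2 HCR and 4 LCR samples. Its HCR mean was 6.02% ± 6.25 and its LCR mean 3.65% ± 4.25, which did not pass (limma adjusted p = 0.840). Across samples the deviations of the flanks from their line means were uncorrelated (r = -0.00553 over 14 samples, a description). The steps on either side were larger in HCR by 10.02 and 4.17 points and did not pass (limma adjusted p = 0.314 and 0.684). The call after the window was lost without HCR replicate 1, 2, 4 or 6 or LCR replicate 1, 2, 3, 4 or 8 (limma adjusted p = 0.0516 to 0.0712) and after centring (0.125). That before it was lost only with the replicate block (0.0599), among the 23 alternatives run.

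The largest passing difference higher in HCR was also on chromosome 2, at 234121001 to 234122000. HCR samples had 60% to 79.1% there, with a median of 74.3%, and LCR samples 50.7% to 65.2%, with a median of 56.7%. HCR replicate 1 was the only HCR sample within the LCR range. The means, 73.0% ± 7.00 (SD, n = 6) and 56.3% ± 4.70 (SD, n = 8), lay 16.7 points apart (log2 logit 1.07, SE 0.191, limma adjusted p = 0.0178). Its unmethylated neighbour stood at 7.37% ± 4.36 and 8.02% ± 2.39, so the step was 17.4 points larger in HCR, which did not pass (limma adjusted p = 0.0874). On chromosome 10 the member at 105315001 to 105316000 had 77.3% to 84.4% in HCR and 67.7% to 75.7% in LCR, with no overlap. Its means were 80.1% ± 2.75 and 72.6% ± 2.57 (limma adjusted p = 0.0421). Its neighbour stood at 2.91% ± 3.24 in HCR and 7.06% ± 3.35 in LCR, and its step did not pass (limma adjusted p = 0.0925). The call of its level was lost in 14 of 23 alternatives, centring included (0.160), and without HCR replicate 1, 2, 5 or 6 or LCR replicate 1, 2, 3, 4, 6 or 8 (0.0638 to 0.0974). The member lower in HCR was that of the chromosome 8 border, at -0.86 log2 logit units (SE 0.154, limma adjusted p = 0.0175; 0.0507 without HCR replicate 2).

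**Figure D4:**
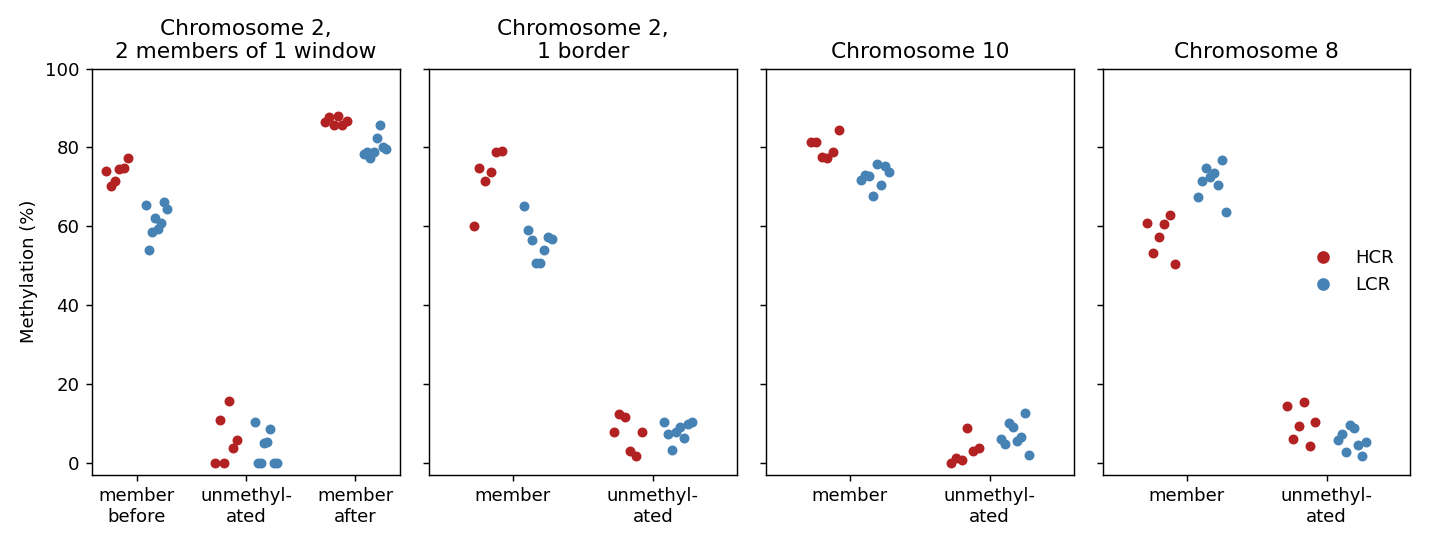
Methylation (%) of each HCR and LCR sample in the 5 members whose level differed between the lines and in their unmethylated neighbours; the first panel shows both members that flank a single unmethylated window. The members have a higher mean in HCR in 4 and a lower one on chromosome 8, with some overlap of the lines at 234121001 and 184676001 on chromosome 2, while the neighbours stay under 16% in every sample.

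The spread of the step between samples was similar in the lines. Its SD averaged 6.72 points over the borders among HCR samples and 6.50 points among LCR samples, a difference of 0.218 points (jackknife SE over samples 0.466). The SD was larger in HCR at 497 borders (51.6%), against 54.5% of all touching autosomal pairs, and the median ratio was 1.03. A limma test of absolute deviations from the line mean called 0 borders at an adjusted p under 0.05, against 0.00301% of all pairs, and no other tool was run. At an unadjusted p under 0.05 there were 57 borders (5.92%), 39 of them with more spread in HCR, against 9.00% of all pairs. That split by direction was not counted over all pairs. The lowest adjusted p, 0.222, belonged to the border of the member at 57694001 to 57695000 on chromosome 5, singled out after its values were seen, with an SD of 12.9 points in HCR and 4.10 in LCR. The small difference of the mean SD rested on single libraries. It was 0.634 points without LCR replicate 7, 0.0324 without HCR replicate 1 and -0.00406 without HCR replicate 3.

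**Figure D5:**
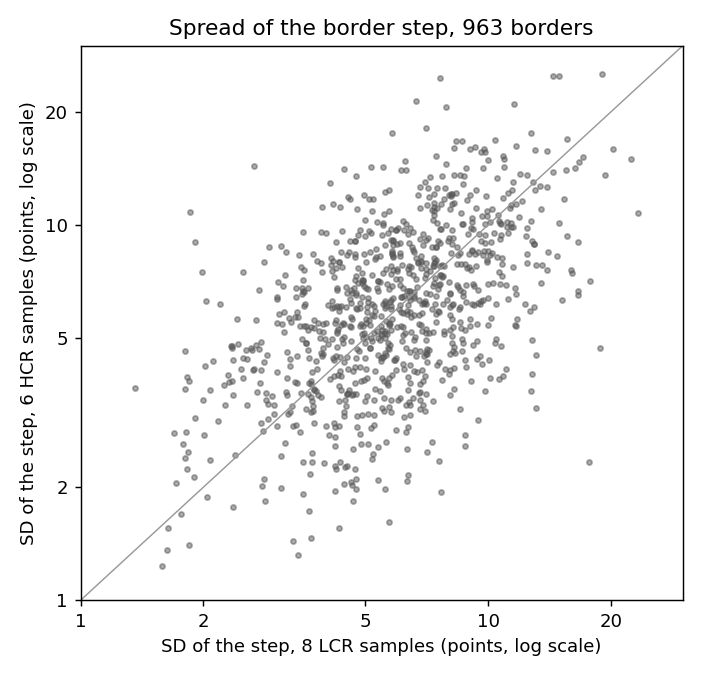
SD of the step among the 6 HCR samples against that among the 8 LCR samples for each of 963 borders, in percentage points on log axes, with the line of equality. The points scatter on both sides of the line, with a larger SD in HCR at 497 borders.

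Variation between samples came mainly from the methylated side. The member supplied a median of 93.4% of the summed within-line variance of both windows, and the pooled within-line SD had a median of 5.63 points in members and 1.54 points in neighbours. Deviations of both sides were nearly unrelated, with a median correlation over samples of 0.02 across borders, a description over points that share 14 libraries. Spread fell with level among members and rose with level among neighbours. Members of 50 to 60% had a median SD of 6.60 points, those of 60 to 70% 5.46 points and those of 70 to 80% 3.92 points. In other windows of the same classes it was 6.31, 5.09 and 4.07 points. Neighbours of 0 to 2% had a median SD of 0.471 points, those of 2 to 5% 1.53 points and those of 5 to 10% 3.34 points. Other windows of those classes had 0.402, 1.32 and 3.13 points. The rule chose members and neighbours of unlike levels, and the part of level in their unlike spread was not tested. Whether borders differ from other windows of like level was not tested.

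The steepest borders were on chromosomes 17 and 10. The member at 73250001 to 73251000 on chromosome 17 had a mean of 91.3% beside a neighbour at 6.35%. Its step was 77.8 to 91.0 points in HCR and 80.7 to 92.1 points in LCR. At 100724001 to 100725000 on chromosome 10 a member at 85.6% touched a neighbour at 1.07%, and 1 HCR and 1 LCR sample were fully methylated at 100%. At 33521001 to 33522000 on the same chromosome the levels were 85.3% and 0.799%, and the step was 83.8 to 88.0 points in HCR and 80.3 to 85.4 points in LCR. None of these 3 passed the test of the step (limma adjusted p = 0.692, 0.991 and 0.557).

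The most uniform borders held their step within a few points in every sample. On chromosome 18 the member at 68604001 to 68605000 had a step of 75.2 to 78.0 points in HCR and 74.3 to 79.2 in LCR, with a pooled SD of 1.45 points. That at 83653001 to 83654000 on chromosome 17 had 68.7 to 72.2 and 68.5 to 72.8 points, with a pooled SD of 1.52 points. The third, at 84236001 to 84237000 on chromosome 13, had 66.8 to 70.7 and 64.8 to 69.7 points. The HCR range lay within the LCR range at the first 2 and overlapped it in part at the third.

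The most variable borders contained single samples at 0 or 100% methylation. On chromosome 2 the member at 29946001 to 29947000 was listed at 0 in HCR replicate 1 and at 100% in LCR replicate 7, and the step ran from -11.01 to 57.4 points in HCR and from 35.9 to 96.8 points in LCR. At 46127001 to 46128000 on the same chromosome LCR replicate 4 was listed at 0 and the other LCR samples had 39.6% to 66.7%. These were the only borders with a step at or below 0 in any sample. At 99187001 to 99188000 on chromosome 10 HCR replicate 5 was at 100% and the other HCR samples at 27.6% to 49.5%. The number of reads behind these values is unknown, and its part in them was not tested.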

How the data were processed

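Percent methylation per window was deposited by the authors for each library, with chromosome, start and end but no read counts, so depth is unknown and all errors are spreads between samples. The submitters' processing notes name FastQC, Trim Galore 0.6.10, Bismark, Bowtie2 and the build rn7. The labels' protocols give 100 ng of DNA, MspI digestion and bisulfite conversion in pools. The sources used here do not give the coverage minimum or the tool that formed windows. All 14 sample columns were matched by library name, and 0 were left unused.

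Levels were tested as log2((level + 0.01)/(1 - level + 0.01)) and steps in percentage points with limma 3.58.1 in R 4.3.3, with a variance trend and line as the only factor. Tests covered all 135802 complete windows or all 33265 touching pairs, with 2-sided Benjamini-Hochberg adjusted p under 0.05 as the threshold. Spread was tested as absolute deviations from the line mean, scaled by the square root of n/(n - 1). Procedures were run on simulated normal noise with planted changes of level, step and spread. The planted changes of spread were larger than most seen between the lines, so smaller ones were not covered. Python 3.11.15, numpy 2.4.6 and pandas 2.3.3 did the rest. Named are up to 5 passing borders in each direction, up to 3 passing members in each direction, up to 3 borders passing for spread, and the 3 with the largest step, the smallest SD and the largest SD. Members and lists were chosen with earlier results of these data known. Sequence and genes at the windows were not analysed here, as no genome of build rn7 was used.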

Additional observations from a re-analysis of the deposited data

Results flagged for a closer look

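Among 92 sets of values from the mean measures and the 14 named borders, each within 1 line, 5 held a sample far from the others. Several of these sets share a window and are not independent. A chance rate of about 1 in 20 would hold only for sets not chosen by their values. The borders at 46127001, 29946001 and 99187001 were named for their large SD, so that rate does not apply to them. On chromosome 2 the member at 46127001 to 46128000 was listed at 0 in LCR replicate 4, with the other LCR samples at 39.6% to 66.7%, and its step there was -2.76 points against 38.2 to 66.0. At 29946001 to 29947000 on that chromosome the step of LCR replicate 7 was 96.8 points, and that of the other LCR samples 35.9 to 62.6. On chromosome 10 the member at 99187001 to 99188000 was at 100% in HCR replicate 5 and at 27.6% to 49.5% in the other HCR samples. Also on chromosome 10, the neighbour of the member at 33521001 to 33522000 was at 1.55% in LCR replicate 2 and at 0.301% to 0.772% in the other LCR samples.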

How the results depend on the processing

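Quantile normalization, the covariate on mean values and the 12 samples without a block were chosen after seeing the data. Members with differing levels numbered 5, beside 773 of all 135802 windows (0.569%). They were 3 after quantile normalization (675 of all windows) and 2 with the 12 samples numbered 1 to 6 (444). By other limits there were 2 among 329 members of 60% or more beside windows under 5%. There were 12 among 1669 of 50% or more beside windows under 20%. For both the share of all windows stays 0.569%, as the fit is the same. Without single samples they were 2 to 6, with 495 to 669 of all windows. Borders with a differing step numbered 1, beside 73 of all 33265 pairs (0.219%). By those limits they were 0 of 331 and 8 of 1707 (0 of the 8 larger in HCR). The share of all pairs stays 0.219%, which is below that of the 1707 borders. Without single samples they were 0 to 2, with 44 to 70 of all pairs. With the step taken between log2 logit levels the count was 1 (51 of all pairs), but not the same border. For the spread 0 borders passed in every alternative run. With the replicate block both counts were 0 (92 members and 79 borders at an unadjusted p under 0.05), and all calls over the whole table fell from 773 to 71 windows, against 444 in the same 12 samples without it. Same-numbered deviations correlated at -0.0314 to 0.0339, and 1 of 6 HCR samples was most like the LCR sample of its number. The labels do not say whether the numbers pair the samples or which libraries shared a bisulfite pool. The part of a shared pool was not tested.

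The mean step difference was 0.237 points after quantile normalization, 0.765 with the replicate block and 0.847 to 1.27 without single samples. The member difference was 0.291 after centring and 0.152 after quantile normalization (1.15 to 1.75 without single samples). That of the neighbours was -0.767 and -0.0895, and 0.961 with the limit at 20% (0.270 to 0.470 without single samples). The difference of the mean SD was 0.772 points in the 12 samples of the replicate block and -0.00406 to 0.634 without single samples.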

Other observations

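Some neighbours, chosen as unmethylated by their mean over both lines, differed between the lines. Of the 953, 4 passed the limma test of the level (0.420%, against 0.569% of all windows), and they are named because they were few. The largest difference was at 11242001 to 11243000 on chromosome 10 (limma adjusted p = 0.0172). HCR samples had 3.67% to 27.8% there, with a median of 20.03%, and LCR samples 0 to 6.01%, with a median of 1.63%. The means were 17.5% ± 8.53 and 2.22% ± 2.07, so the window met the limit of 10% only through LCR. On chromosome 6 the neighbour at 49515001 to 49516000 stood at 7.72% ± 2.99 in the HCR samples (SD, n = 6) and at 1.36% ± 1.36 in the LCR samples (SD, n = 8; limma adjusted p = 0.0169), with no overlap. On chromosome 1 that at 160267001 to 160268000 was lower in HCR, 4.32% ± 2.88 against 10.6% ± 2.57 (limma adjusted p = 0.0399). It met the limit of 10% only through HCR. The neighbour at 93873001 to 93874000 was higher in HCR, 2.25% ± 0.636 against 1.04% ± 0.285 (limma adjusted p = 0.0430).

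The largest step difference of all borders did not pass. At 218846001 to 218847000 on chromosome 2 the step averaged 55.9 points ± 21.4 in HCR and 30.6 points ± 6.64 in LCR (limma adjusted p = 0.283). HCR samples ranged from 26.5 to 86.5 points and LCR samples from 24.9 to 44.3, and HCR replicate 1 was listed at 100% in the member. At 8795001 to 8796000 on chromosome 14 the step averaged 61.8 points ± 6.79 and 42.3 points ± 11.7 (limma adjusted p = 0.200). Both were singled out after their values were seen. Each of these members met the lower limit for members only through HCR, as its LCR mean lay below that limit. The LCR values of the member ran from 33.4% to 53.8% on chromosome 2 and from 27.4% to 61.5% on chromosome 14. By the LCR mean alone neither window would have been chosen as a member.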
